A study of Mus musculus with 4 samples.

Results

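The genomic segments described here are the large stitched clusters of MED1 ChIP-seq regions in RAW 264.7 cells, a mouse monocyte/macrophage-like line established from a tumour. They were chosen by region width: abutting deposited intervals on chromosomes 1 to 19 and X were joined into regions, regions separated by no more than 12.5 kb were stitched, and stitched clusters whose regions summed to at least 20 kb were kept. This gave 353 large clusters among 13549 clusters (2.61%), with 1940 of 22565 regions (8.6%). The series has 4 libraries, 2 from cells given lipopolysaccharide (LPS), a component of the bacterial envelope, for 2 h and 2 from untreated cells; all came from the same line, fixed with DSG and formaldehyde and precipitated with a MED1 antibody. The LPS dose is unclear, since it is 10 ng/mL in the sample labels and 100 ng/mL in the description of the treatment. Which of these libraries contributed to the list is not stated. The deposited intervals carry positions and no height, and none is assigned to a library or a condition. LPS-stimulated and untreated cells could therefore not be compared, read depth is unknown, and every count below is a value of a single list with no replicate and no error between libraries.

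MED1 is a subunit of Mediator, the complex that carries signals from DNA-bound transcription factors to RNA polymerase II. Groups of enhancers that lie close together and hold much Mediator are known as super-enhancers, and they are often found at genes that give a cell type its identity or that respond strongly to a signal. In macrophages, LPS is sensed by Toll-like receptor 4, which activates NF-kB and MAP kinases and, in a later wave, the interferon response. Super-enhancers are usually called from the amount of signal. No signal is given here, so that name could not be checked, and the clusters are called large by the length that MED1 regions cover.

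The sequences of 7 mature miRNAs whose hairpins lay in large clusters are shown because each is a separate small product of a covered locus, with seed bases 2 to 8 in capitals (RefSeq, GRCm38.p6). Of 52 mature sequences from the covered hairpins, the pair from the X chromosome was the one that shared a seed.
mmu-miR-155-5p: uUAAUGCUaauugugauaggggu
mmu-miR-21a-5p: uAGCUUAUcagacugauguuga
mmu-miR-221-3p: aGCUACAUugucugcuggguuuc
mmu-miR-222-3p: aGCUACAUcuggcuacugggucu
mmu-miR-23a-3p: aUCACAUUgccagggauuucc
mmu-miR-27a-3p: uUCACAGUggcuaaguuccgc
mmu-miR-24-3p: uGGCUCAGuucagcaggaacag

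The promoters of 4 genes whose start lay in a region of a large cluster are shown next, from 250 bases before to 50 bases after the start (RefSeq, GRCm38.p6, 5′ to 3′ along the gene). All 4 were taken from the 6.16% of promoters in large clusters that hold the NF-kB pattern. Those of Tnf, Lta, Tnfaip3 and Ccl3, whose starts also lay in large clusters, did not hold it. Capitals mark letters of the NF-kB pattern on either strand. Cxcl2 and Cxcl10 encode chemokines for neutrophils and for T cells, Nfkbia encodes the NF-kB inhibitor IkBα, and Ahnak encodes a giant scaffold protein and lies in the cluster with the greatest covered length. The shares of all promoters that hold the pattern are given further on, and a match describes letters and not a bound site.
Cxcl2, chr5:90903649-90903948, plus strand: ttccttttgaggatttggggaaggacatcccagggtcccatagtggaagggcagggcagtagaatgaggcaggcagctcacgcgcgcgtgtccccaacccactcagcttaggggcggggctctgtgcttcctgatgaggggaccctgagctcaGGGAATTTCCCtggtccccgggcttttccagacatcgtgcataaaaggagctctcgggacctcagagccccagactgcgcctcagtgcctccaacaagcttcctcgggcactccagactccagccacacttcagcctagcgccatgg
Cxcl10, chr5:92348840-92349139, minus strand: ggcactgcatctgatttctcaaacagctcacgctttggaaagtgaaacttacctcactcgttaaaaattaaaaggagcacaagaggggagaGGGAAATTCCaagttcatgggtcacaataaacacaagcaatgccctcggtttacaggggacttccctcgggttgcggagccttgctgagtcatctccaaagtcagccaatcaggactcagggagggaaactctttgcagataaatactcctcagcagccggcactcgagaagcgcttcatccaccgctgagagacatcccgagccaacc
Nfkbia, chr12:55492598-55492897, minus strand: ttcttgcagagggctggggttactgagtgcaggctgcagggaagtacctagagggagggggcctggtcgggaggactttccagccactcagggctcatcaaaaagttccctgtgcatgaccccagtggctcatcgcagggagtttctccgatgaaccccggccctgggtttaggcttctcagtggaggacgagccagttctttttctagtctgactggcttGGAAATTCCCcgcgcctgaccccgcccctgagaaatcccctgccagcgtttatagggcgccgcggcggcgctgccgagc
Ahnak, chr19:8989034-8989333, plus strand: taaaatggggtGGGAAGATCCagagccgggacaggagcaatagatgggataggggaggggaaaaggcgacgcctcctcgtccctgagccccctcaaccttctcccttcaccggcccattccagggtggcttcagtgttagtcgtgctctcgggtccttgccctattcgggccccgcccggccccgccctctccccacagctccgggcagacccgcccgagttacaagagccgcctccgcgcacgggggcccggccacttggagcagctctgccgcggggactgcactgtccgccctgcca

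The large clusters covered 11.3 Mb of the 59.7 Mb in MED1 regions (18.9%). Covered length, the measure that selected them, had a median of 27.1 kb in large clusters (lowest 20.02 kb, highest 112.0 kb), against 2.42 kb in other clusters. Just inside the 20 kb limit lay clusters at Cdh23, an adhesion gene (20024 bp), C3ar1, a complement receptor gene (20031 bp), and Nfkbid, an atypical IkB gene (20033 bp). Just outside it lay clusters at A430057M04Rik (19978 bp) and Spink5, a protease inhibitor gene (19962 bp). A separate cluster for which Spink5 was the gene most covered, or else the nearest, was among the large clusters. The ranked curve of covered length passed from inside to outside with no gap at the limit.

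**Figure D1:**
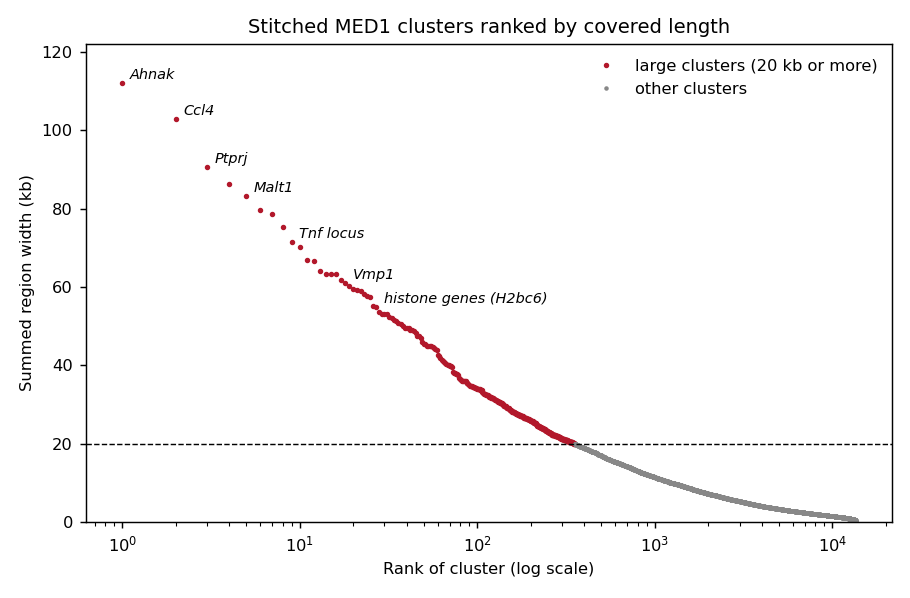
Covered length (summed region width, kb) of every stitched cluster, large clusters in red and other clusters in grey, against rank on a log axis, with the 20 kb limit dashed. Covered length declines from 112.0 kb at Ahnak with no gap at the limit.

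Most large clusters were made of several wide regions. The median large cluster had 5 regions (quartiles 4 and 7, highest 17) and spanned 45.1 kb, and the median share of the span that was covered was 64.6%. There were 11 large clusters of a single region, 68 of 2 or 3 regions, 176 of 4 to 6, 68 of 7 to 9, and 30 of 10 or more. Among other clusters, 8767 (66.4%) were single regions. In 131 large clusters (37.1%) one region held at least 50% of the covered length, and 66 contained a region of at least 20 kb. At Plekho2, which encodes a pleckstrin homology protein, 77.6% of 64.1 kb lay in one region of 49.7 kb. The cluster at C5ar1, encoding the receptor for complement C5a, was the opposite case, with 17 regions that summed to 51.2 kb and a widest region of 10.9 kb. These features follow from selection on width and are given as a description.

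**Figure D2:**
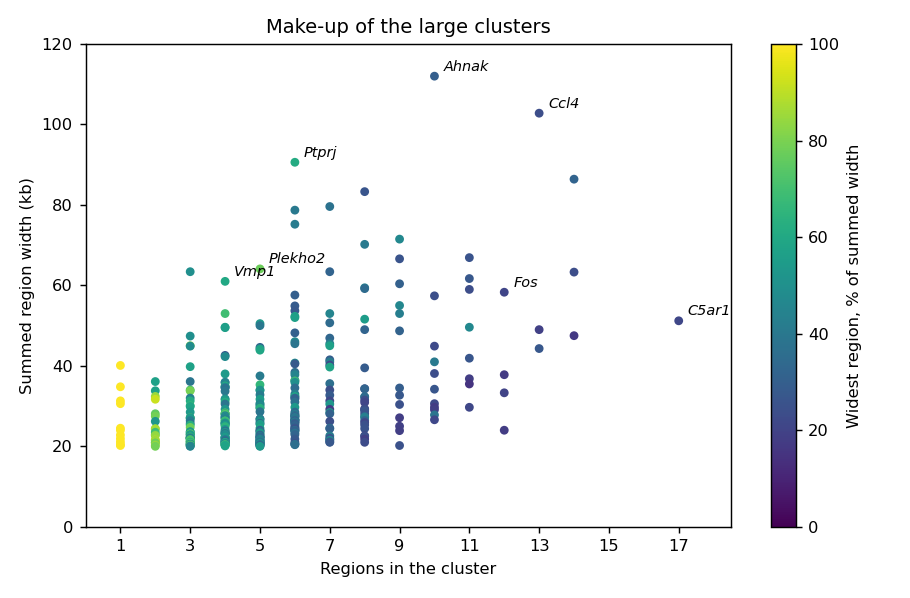
Number of regions (x) and summed region width in kb (y) of each of the 353 large clusters, coloured by the percentage of that width in the widest region. Clusters of similar covered length range from 1 wide region to many smaller ones, with the 17 regions of the C5ar1 cluster at the right.

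Regions in large clusters were built from more deposited intervals. Regions of more intervals were wider, with medians in large clusters of 2032.5 bp for 1 interval and 11774 bp for 5 or more. Width selected the clusters, so the interval numbers and lengths are again a description. Regions of 5 or more abutting intervals made up 288 of the regions in large clusters (14.8%, with 34.8% of their covered length), against 574 of the regions in other clusters (2.78%, with 7.77%). Regions of 3 intervals were the commonest class in both, with 1075 regions in large clusters (55.4%) and 12548 in other clusters (60.8%). Their median width was 3970 bp in large clusters and 2160 bp in other clusters. The middle interval was the longest in 907 of these regions in large clusters (84.4%) and in 11674 in other clusters (93.0%). The median lengths of the first, middle and last interval were 342, 2593 and 334 bp in large clusters, and 175, 1575 and 175 bp in other clusters. What sets the edges between abutting intervals is not given in the sources used here.

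Large clusters lay on every chromosome counted. Chromosomes 2 and 11 carried 38 each, and the X chromosome carried 3. Per 100 protein-coding genes, the highest values were 2.55 on chromosome 19, 2.36 on chromosome 11 and 2.34 on chromosome 3, and the lowest was 0.311 on the X chromosome. One of the 3 on the X chromosome lay at Cybb, which encodes the heavy chain of the phagocyte NADPH oxidase, with 31.7 kb covered and a region of 29.1 kb. Neighbouring large clusters were usually far apart, with a median gap of 2.96 Mb, but 21 of 333 neighbouring pairs were within 50 kb. The closest pairs were those of Atf3 with Pacc1 (12.5 kb), both at or near Tnfaip3 (12.8 kb), both over Ptpn22 (14.1 kb) and both at or near Nfkbiz (16.0 kb). With a slightly longer stitching distance these pairs would each have formed a single cluster.

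The cluster with the greatest covered length lay at chr19:8919539-9083825 over Ahnak and 7 other genes, with 10 regions and 112.0 kb covered. Its 10 regions were not alike. The 4 regions at the far end from Ahnak, at the starts of B3gat3, Rom1 and Eml3, Mta2 and Tut1, measured 1.8 to 2.5 kb. Over Ahnak itself, 5 regions covered 83.6% of the gene, the widest of them 33.6 and 33.3 kb. The 33.3 kb region held the start of Ahnak and extended 15667 bp into the gene and 17617 bp upstream of it, over Eef1g, a translation elongation factor gene.

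The next cluster held the macrophage CC chemokine genes at chr11:83521992-83669532, with 13 regions and 102.8 kb covered. Ccl5, Ccl9, Ccl3 and Ccl4, which encode attractants of monocytes and T cells, each lay whole within a single region. Ccl5 lay in a region of 24.3 kb formed by 1 interval, Ccl9 in one of 16.0 kb, and Ccl3 and Ccl4 together in one of 24.1 kb. Ccl6 differed from these neighbours, since the one region at its start measured 1.5 kb. Around the genes, 9 of the 13 regions lay outside any protein-coding gene, the widest of them 15.6 kb.

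Ptprj, which encodes a receptor tyrosine phosphatase of leukocytes, had 90.6 kb covered in 6 regions. One of these, at 55.3 kb, was the widest region of all large clusters and ended within 1 kb of the annotated start of the gene, without holding it. The cluster of 86.4 kb that followed touched no protein-coding gene, and its 14 regions ended 1.62 kb from Tmco5 and overlapped the long non-coding RNA genes Gm46758 and D330050G23Rik. At Malt1, encoding the paracaspase that cleaves regulators of NF-kB signalling, 83.3 kb was covered and 97.8% of the gene lay in regions. Its widest regions were of 22.1 kb (3 intervals), 15.8 kb (1 interval) and 11.4 kb.

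Lpp, a gene of 599229 bp for an adhesion-plaque protein, was touched by 4 large clusters, more than any other gene. Together their regions covered 151850 bp of it (25.3%). The larger of its leading clusters (79.6 kb) overlapped the annotated gene near its end at position 24992578 and continued beyond it, with regions of 26.4 and 30.0 kb outside the gene. The other (75.2 kb) lay wholly inside the gene and held regions of 31.3 and 30.4 kb. Only 6 other genes were touched by more than 1 large cluster, each by 2 of them: Cdk6, Hivep3, Srgap2, Ptpn22, Itpkb and Vps13d.

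The ferritin heavy chain gene Fth1, which stores iron, shared a cluster of 78.7 kb with Best1 and Incenp. Fth1 lay whole in a region of 22.5 kb, and the widest region of that cluster, 31.8 kb, lay outside genes. The Tnf cluster at chr17:35162952-35263890 covered 71.5 kb and touched 10 genes. Its widest region, 33.3 kb in 11 intervals, contained all of Tnf, Lta and Ltb, which encode tumour necrosis factor and the lymphotoxins. Lst1, Aif1, Prrc2a and H2-D1 in the same cluster were touched by regions of 2.7 to 6.8 kb. Mapkapk2, encoding a kinase activated by p38, had 70.2 kb covered, with a region of 28.7 kb that extended 26920 bp into the gene from its start and 1743 bp upstream.

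The remaining 15 of the 25 largest clusters covered 57.4 to 66.9 kb each. Receptor genes among them were Cx3cr1, for the chemokine fractalkine (66.9 kb, 11 regions, 81.4% of the gene covered), and Tnfrsf1b, for a tumour necrosis factor receptor (66.6 kb, 9 regions, 79.3% of the gene covered). Cd14, the LPS co-receptor, lay whole within a region of the 59.2 kb cluster led by Tmco6, and Nrp2, a semaphorin co-receptor gene, led one of 59.4 kb. Genes of vesicle and membrane biology included Vmp1, an autophagy gene (61.0 kb), Clic4, an intracellular chloride channel gene (60.4 kb), and Syngr1, a synaptic vesicle protein gene whose cluster also held Pdgfb and Rpl3 (59.0 kb). Dock10, which encodes a guanine nucleotide exchange factor, had 63.4 kb in 7 regions that all lay over the gene. The Frmd8 cluster (63.4 kb) had 3 regions and overlapped the nuclear long non-coding RNA genes Malat1 and Neat1. Fos, an AP-1 subunit gene of 3385 bp, was the one protein-coding gene touched in a cluster of 12 regions, 58.3 kb covered and 118.1 kb spanned. Plekho2, Pacc1, Metrnl, Asph and Zfp710 led the others.

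Below these 25, the clusters down to 35 kb of covered length again mixed immune genes with genes of broad use, and the examples that follow were chosen after their values were seen. Signalling genes of leukocytes included Lcp2, encoding the adaptor SLP-76 (49.0 kb, 8 regions), Pik3r5, a regulatory subunit gene of phosphoinositide 3-kinase gamma (47.4 kb, 3 regions), and Apbb1ip, encoding the integrin activator RIAM (44.3 kb, 13 regions). Surface and secreted proteins were represented by the paired receptor genes Cd300lb and Cd300a (46.9 kb), the interleukin 10 receptor gene Il10ra (in a 41.9 kb cluster) and Lgals3, encoding galectin 3 (40.2 kb). Lipid handling was represented by Lpl, encoding lipoprotein lipase (44.6 kb), and Lrp1, a lipoprotein receptor gene that shared 38.0 kb with Stat6. Genes used in most tissues were present as well, such as the clock gene Per1 (49.0 kb, 13 regions), the splicing regulator gene Mbnl1 (50.7 kb) and Aldoa, a glycolytic enzyme gene in a 47.5 kb cluster that also touched Mapk3. The antigen presentation gene Tapbp shared its 44.9 kb cluster with 9 other genes, among them the housekeeping gene Rps18.

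The 11 large clusters that were a single region covered 20.2 to 40.1 kb. They lay over Morrbid, miR-221 and miR-222, Cdk6, histone genes led by H1f1, Dpep2 with Dus2 and Ddx28, Ankrd33b, Itga4, Aopep and the miR-155 host gene, and 2 more lay outside protein-coding genes. Cdk6, encoding a cell cycle kinase, had 31.3 kb covered by a region of 9 intervals. Itga4, encoding an integrin subunit of leukocytes, had 22.8 kb covered by a region of 3 intervals that extended 18398 bp into the gene from its start. Of the 11, the cluster at the miR-155 host gene was the one formed by a single interval.

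Gene starts lay in large clusters, but most of the regions lay away from them. Starts were taken from RefSeq, and for the genes with no strand given here either end of the gene was counted. Regions within 1 kb of a start numbered 555 in large clusters (28.6%) and 8810 in other clusters (42.7%). Regions over a gene and away from starts numbered 701 in large clusters (36.1%), against 6344 in other clusters (30.8%). Regions outside genes numbered 684 in large clusters (35.3%), against 5471 in other clusters (26.5%). By covered length, regions at starts held 38.8% in large clusters and 47.1% in other clusters. In large clusters they were thus the fewest by number and the first by length, while in other clusters they came first by both. A region at a start had a median width of 5370 bp in large clusters and 2081.5 bp in other clusters.

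At the level of whole clusters, 269 large clusters (76.2%) and 7235 other clusters (54.8%) had a region within 1 kb of a start. Large clusters also had more regions each (median 5, against 1 in other clusters), and these shares were not adjusted for that. The widest region was at a start in 181 large clusters (51.3%). With the regions at starts set aside, 161 large clusters (45.6%) still had at least 20 kb covered.

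Coverage reached further from starts in large clusters. Among 454 genes whose most upstream start lay in a large cluster, 58.4% had a MED1 region at 3 kb into the gene, against 12.2% of 6835 genes with that start in another region. At 3 kb upstream the shares were 49.1% in large clusters and 9.47% in other regions. At 18 kb into the gene they were 39.6% in large clusters and 5.35% in other regions. The region that held the start extended a median of 3287.5 bp into the gene and 2175 bp upstream in large clusters, against 1136 bp and 965 bp in other clusters. It reached further into the gene than upstream at 273 starts in large clusters (60.1%) and at 4051 starts in other clusters (59.3%). The difference between these shares was not tested. Width selected the clusters, and the extent of coverage is again a description.

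A gene was counted as touched when at least 1 base of its annotated span overlapped a region of a large cluster. Exons and introns were not told apart. By this count 685 of 21631 protein-coding genes were touched (3.17%), which is the background for the gene groups below. The gene lists were chosen with earlier results of these data known. Any MED1 region touched 11066 genes (51.2%), and 6.19% of those were touched by a large cluster. The median length of touched genes was 13.7 kb, against 17.3 kb for all protein-coding genes. Of the touched genes, 129 (18.8%) lay whole inside 1 region and 279 were covered over at least 50% of their length. A large cluster touched 1 gene in 156 cases, 2 genes in 71, at least 3 in 83, and none in 43.

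Genes of the primary LPS response, induced without new protein synthesis, were touched in 25 of 50 cases (50.0%), against 3.17% of all protein-coding genes. These 25 genes lay in 21 clusters. Among the secreted factors were Tnf, Lta, Ltb, Il1a, Cxcl2, Ccl2, Ccl3, Ccl4 and Ccl9. Ccl2, a monocyte attractant gene, lay whole in a region of a cluster with 22.6 kb covered. Il1a, encoding interleukin 1α, was covered over 46.6% by 2 regions.

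Genes of NF-kB control were touched in part. Nfkbia lay whole in one region of a 27.6 kb cluster, and that region extended 9051 bp into the gene and beyond its end and 3141 bp upstream. Tnfaip3, encoding the ubiquitin-editing inhibitor A20, lay whole in a region of a 28.0 kb cluster, with a second large cluster of 26.6 kb at 26.6 kb from the gene. Nfkbiz, encoding the nuclear cofactor IkBζ, was covered over 94.3% in a cluster of 52.0 kb. Immediate-early transcription factor genes that lay whole in a region were Fos, Atf3, Junb, Irf1 and Klf6, and Rel, an NF-kB subunit gene, was covered over 64.2%. Other immediate-early factor genes of the same list, Egr1, Egr2, Egr3, Fosb and Jun, each had a MED1 region over the gene but were not touched by a large cluster, the nearest of which were 595.5 kb (Egr2) to 21596.8 kb (Jun) away. The other NF-kB subunit genes, Nfkb1, Nfkb2, Relb and Rela, were not touched. Their nearest large clusters were 39.8 kb (Rela) to 12963.7 kb (Nfkb1) away. Dusp1, encoding a phosphatase that inactivates MAP kinases, and Socs3, encoding an inhibitor of cytokine signalling, lay whole in regions of clusters with 39.8 and 48.2 kb covered.

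Some strongly LPS-responsive genes were not touched. Il1b, next to Il1a on chromosome 2, had a MED1 region over the gene and lay 25.4 kb from the nearest large cluster. Cxcl1 lay inside the span of the Cxcl2 cluster, 1.0 kb from its closest region, and Cxcl3 lay 87.4 kb away from that cluster. Any MED1 region touched 46 of the 50 genes (92.0%), against 51.2% of all protein-coding genes.

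Genes of the secondary and interferon response were touched in 8 of 33 cases (24.2%, in 7 clusters), against 3.17% of all protein-coding genes. The region coverage of these genes ranged from 48.8% at Cmpk2 to 100.0% at Acod1, Il27, Cxcl10, Ccl5 and Slfn2. Acod1, which makes the metabolite itaconate, lay in a 53.0 kb cluster and within a region of 24069 bp. Il27, a cytokine subunit gene, lay in one of 44.2 kb. Rsad2 and Cmpk2, neighbouring genes of antiviral enzymes, shared a cluster of 23.3 kb. Nos2, Il6 and Il12b, which encode inducible nitric oxide synthase, interleukin 6 and the p40 subunit of interleukin 12, were not touched. Their nearest large clusters were 1180.5, 4480.2 and 5782.9 kb away. Nos2 and Il6 did have a MED1 region over the gene, while the closest to Il12b was 54.9 kb away.

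**Figure D3:**
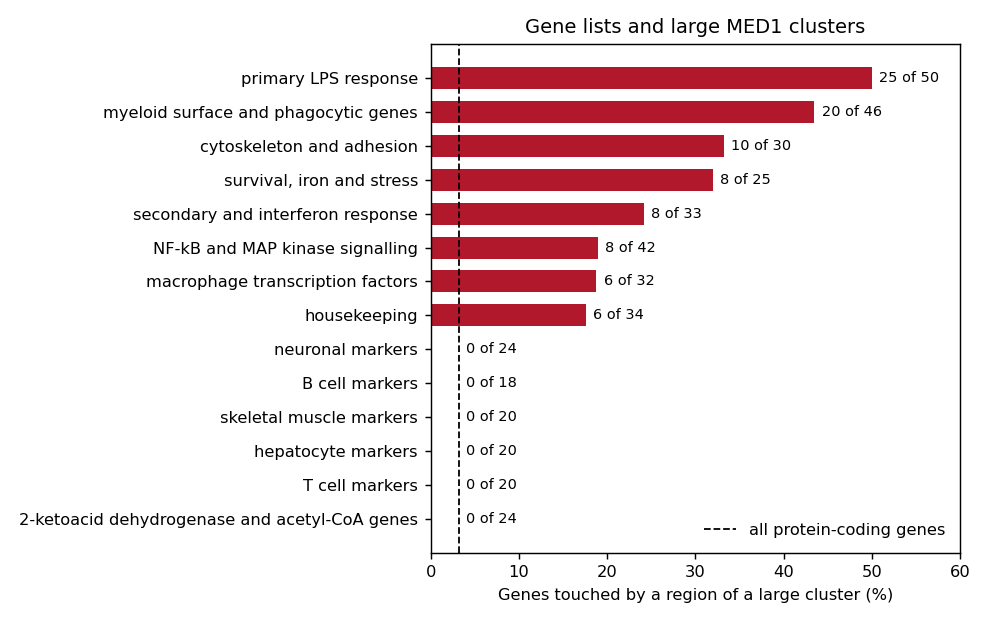
Percentage of the genes of each list touched by a region of a large cluster (bars, with touched and annotated numbers beside them) and of all protein-coding genes (dashed line, 3.17%). The primary LPS response and myeloid surface lists have the longest bars, housekeeping genes reach 17.6%, and 6 lists are at 0.

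Myeloid surface and phagocytic genes were touched in 20 of 46 cases (43.5%, 19 clusters), against 3.17% of all protein-coding genes. Besides Ptprj, Cx3cr1, Tnfrsf1b, Cd14 and C5ar1, they included Csf1r, the receptor gene for macrophage colony-stimulating factor (67.8% covered, 31.0 kb cluster). Lysosomal genes were Ctsb (83.1% covered), Ctsd (51.7%) and Ctss (32.7%), which encode cathepsins. Lyz2 and Lyz1, the lysozyme genes, shared a cluster of 27.8 kb and were covered over 76.7% and 67.6%. Long receptor genes were covered over smaller parts, with 19.0% at the lipid scavenger receptor gene Cd36 and 13.4% at Msr1. Csf2ra, Csf2rb and Csf3r, receptor genes for other colony-stimulating factors, were not touched, although each had a MED1 region over the gene. Other untouched genes of this list included Adgre1, Itgam, Itgax, Itgb2, Fcgr1, Fcgr3, Fcer1g, Trem2 and Mertk. Tlr4, the gene of the LPS sensor, was also untouched, at 3415.8 kb from the nearest large cluster.

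Transcription factor genes of macrophages were touched in 6 of 32 cases (18.8%), against 3.17% of all protein-coding genes. Spi1, encoding the lineage factor PU.1, was covered over 73.5% in a 31.8 kb cluster, and Etv3, an ETS repressor gene, over 64.1% in one of 33.8 kb. Irf8, Mitf and Zeb2 were covered over 19.7, 11.1 and 22.4%. Klf6, which is also on the primary LPS list, lay whole in a region and had another large cluster of 36.1 kb at 54.0 kb from it. Cebpa, Cebpb and Cebpd, which encode C/EBP factors, were not touched, but Cebpb was the closest protein-coding gene, at 49.8 kb, to a large cluster of 35.9 kb.

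NF-kB and MAP kinase signalling genes were touched in 8 of 42 cases (19.0%), against 3.17% of all protein-coding genes. The touched genes included Malt1, Mapkapk2, the interleukin 1 receptor-associated kinase gene Irak2 (81.3% covered, 55.0 kb cluster) and the adaptor gene Traf1 (98.5%, 31.6 kb). Bcl10, which encodes a partner of MALT1, and the adaptor gene Myd88 were not touched. Nfkbid, Nfkbie and Tnip1, which encode inhibitors of NF-kB, were touched, while Nfkbib, Bcl3, Cyld, Tnip3 and Irak3, which encode other regulators or inhibitors of this pathway, were not. Pooled over these 5 inflammatory and macrophage lists, 66 of 202 genes were touched (32.7%), in 58 clusters.

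Survival, iron and stress genes were touched in 8 of 25 cases (32.0%), against 3.17% of all protein-coding genes. Mcl1, an anti-apoptotic BCL2 family gene, lay within a 36850 bp region that extended 19409 bp in the direction of transcription and 17440 bp upstream from its start. Nfe2l2, encoding the oxidative stress factor NRF2, was covered over 60.1%, Cflar, encoding a caspase 8 inhibitor, over 66.4%, and Sqstm1, encoding the autophagy receptor p62, over 48.6%. Bcl2 was not touched. Cytoskeleton and adhesion genes were touched in 10 of 30 cases (33.3%, against the same 3.17%). They ranged from Actb, encoding β-actin, which lay whole in a region, to Frmd4b, covered over 10.7% by 7 regions. Lcp1 and Plek, encoding the leukocyte proteins L-plastin and pleckstrin, were covered over 50.7 and 72.0%. Ahnak, Lpp and Dock10 of the cytoskeleton list and Vmp1 of the survival list lead clusters among the 25 largest. Both lists were chosen with earlier results of these data known, so their shares are not independent of the clusters. Median gene length was 75.35 kb in the cytoskeleton list, against 17.3 kb for all protein-coding genes, and was not adjusted for.

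The share of housekeeping genes touched was also above the background, with 6 of 34 genes (17.6%, against 3.17%). Among them were Rps18, Rpl3, Eef1a1, Tubb5 and Cox4i1. The ribosomal protein gene Rpl3 lay whole in a region of the Syngr1 cluster, and Rps18 in one of a 44.9 kb cluster. Cox4i1, a cytochrome oxidase subunit gene, was covered over 21.0% and lay in the same cluster as Irf8. The macrophage lists therefore stand beside a housekeeping list whose share was close to that of macrophage transcription factors (18.8%) and signalling genes (19.0%). No test of any of these lists against the others was made.

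The study's title names 2-ketoacid dehydrogenases, the enzymes that make acetyl-CoA and related products from ketoacids. Of 24 genes for these enzymes and for acetyl-CoA supply, 0 were touched by a large cluster. That count allows a share of up to 12.5% (3 genes of the total), so with a background of 3.17% it says little about the list. Any MED1 region touched 20 of the 24 (83.3%, against 51.2% of all protein-coding genes), among them Pdha1, Pdhb and Dlat. The closest approach was at Pdhx, which encodes the E3-binding protein of pyruvate dehydrogenase. Pdhx was the nearest protein-coding gene, at 38.0 kb, to a large cluster of 5 regions and 25.7 kb covered.

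Markers of neurons (24 genes), hepatocytes (20), T cells (20), B cells (18) and skeletal muscle (20) had 0 touched genes of 102. A count of 0 allows a share of up to 2.94%, which is close to the 3.17% of all protein-coding genes, so the count is not read as a result about these markers. Any MED1 region touched 20 of these genes (19.6%), 189 of the 202 inflammatory and macrophage genes (93.6%) and 51.2% of all protein-coding genes. Such regions also touched all 34 housekeeping genes and all 30 cytoskeleton genes, so a high share was not particular to the macrophage lists. Within 50 kb of a large cluster lay 5.84% of all protein-coding genes. By that wider count the shares were 56.0% for the primary LPS list, 45.7% for myeloid surface genes, 40.0% for the cytoskeleton list, 33.3% for the secondary list and 32.0% for the survival list. Macrophage transcription factors, with 8 of 32 genes, and NF-kB and MAP kinase genes, with 10 of 42 (23.8%), were close to housekeeping genes, with 8 of 34 (23.5%). The shares were 5.0% or less for each other-lineage list and 4.17% for the 2-ketoacid list, where Pdhx was the 1 gene.

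Some gene families that are arrayed side by side were touched together. These families were grouped after their values were seen, and neighbours under one cluster are not independent. Replication-type histone genes, which are transcribed in S phase, were touched in 45 of 63 cases (71.4%, against 3.17%), and all 45 lay in 5 clusters. The largest of these, 54.9 kb covered at chr13:23528995-23588554, touched 15 genes, more than any other large cluster. Another, led by H2bc21 on chromosome 3, covered 53.7 kb and touched 9. The cluster led by H1f1 held 9 histone genes under a single region of 30.6 kb. In all, 37 of the histone genes lay whole inside 1 region, out of 129 such genes among all touched genes.

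CC chemokine genes were touched in 6 of 19 cases in 2 clusters, and CXC chemokine genes in 3 of 12 cases in 3 clusters. The CXC genes were Cxcl2, Cxcl10 and Cxcl16, and each lay whole in a region. S100a genes, which encode calcium-binding proteins, were touched in 5 of 13 cases in a single cluster of 25.9 kb. The C-type lectin genes Clec4d, Clec4e and Clec4n shared a cluster of 26.6 kb. Hoxb3, Hoxb4, Hoxb6, Hoxb7 and Hoxb8, which encode homeobox factors of body patterning, shared one of 21.8 kb made of 6 regions, none wider than 6.08 kb. Families near or below the background of 3.17% included cytosolic ribosomal protein genes with 4 of 83 (4.82%), Zfp zinc finger genes with 5 of 367 (1.36%), olfactory receptor genes with 1 of 1106 (0.0904%) and guanylate-binding protein genes with 0 of 10. A count of 0 of 10 is too small to be read against 3.17%.

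The 43 large clusters that touched no protein-coding gene (12.2%) covered a median of 24.5 kb, against 27.5 kb for those with a gene. Of these 43, 26 overlapped a long non-coding RNA gene and 17 lay more than 100 kb from any protein-coding gene. Their median distance to the nearest protein-coding gene was 54.0 kb. Several had an inflammatory or macrophage gene as the nearest, such as Tnfaip3 (26.6 kb away), Irf2 (19.4 kb), Peli1 (40.7 kb), Nfkbiz (53.0 kb) and Ets2 (89.3 kb). Others were nearest to genes such as Tomm20 (45.7 kb), Smim20 (76.0 kb) and Msrb3 (106.0 kb), and neither kind was counted. Nearest does not mean regulated, and no contact between a cluster and a gene was measured. A cluster of 28.8 kb ended 0.176 kb from Ch25h, which makes 25-hydroxycholesterol. One of 30.4 kb lay over Pvt1, 254.2 kb from Myc. Morrbid, a long non-coding RNA gene of myeloid cells, was overlapped by a cluster of 21.6 kb and by another that was a single region of 40.1 kb. Over all annotated long non-coding RNA genes, 232 of 12697 were touched (1.83%).

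Of 1005 miRNA hairpins, 29 were touched (2.89%, the background over all hairpins), and these lay in 20 clusters. A gene is longer than a hairpin and more readily touched by 1 base, so this share was not set against that of genes. Any MED1 region touched 130 hairpins (12.9%). The hairpin of miR-155, an LPS-induced miRNA of macrophages, lay in a large cluster that was 1 region of 20448 bp formed by a single interval. That of miR-21a lay at the end of Vmp1, in the 36473 bp region of the cluster named above. The hairpins of miR-221 and miR-222, whose shared seed is shown above (GCUACAU), lay together in a single region of 34752 bp on the X chromosome, 302.0 kb from the nearest protein-coding gene. The hairpins of miR-23a, miR-27a and miR-24-2 lay together in a region of 5793 bp, within a cluster of 34.2 kb led by Zswim4. Those of miR-141 and miR-200c lay in a region of 3056 bp in the cluster of Ptpn6, a phosphatase gene of haematopoietic cells. A hairpin of miR-10a lay in the Hoxb cluster.

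Promoter letters were counted in 568 promoters, of 461 genes, whose start lay in a region of a large cluster. Promoters were given for 546 of the 685 touched genes (79.7%), which is too few for a statement on the base composition of the touched genes, and the shares below hold for the promoters given. None was given for chromosome 18, where 14 touched genes lay, among them Cd14, Csf1r and Malt1. These genes are absent from the promoter counts, and either end of each was counted as a start above. Each pattern was searched on both strands of the 300 bases, and patterns could overlap. The NF-kB pattern, GGGA and TCC separated by 3 unspecified bases, was found in 6.16% of promoters in large clusters, against 5.43% of the 8263 promoters with a start in another region and 4.88% of all 21045 promoters. In Cxcl2 the letters shown above read on both strands, 97 and 96 bases before the start. In Cxcl10 they lay 159 bases before the start, in Nfkbia 29 bases and in Ahnak 239 bases.

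The AP-1 pattern TGANTCA was found in 5.46% of promoters in large clusters, 4.59% in other regions and 7.04% of all promoters. The ETS pattern GAGGAAGT was found in 3.87% of promoters in large clusters, 3.49% in other regions and 3.15% of all promoters. For the interferon pattern, called ISRE, the shares were 3.52% in large clusters, 3.23% in other regions and 3.38% of all promoters. For the C/EBP pattern TTGCNNAA they were 10.0% in large clusters, 8.04% in other regions and 10.3% of all promoters. For these 5 patterns, and also for the cyclic AMP response and TATA patterns below, the share in large clusters was within 2 percentage points of that of all promoters.

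The cyclic AMP response pattern TGACGTCA was held by 1.94% of promoters in large clusters, against 3.86% in other regions and 2.26% of all promoters. The TATA pattern TATAAA was held by 12.9% in large clusters, against 5.93% in other regions and 12.7% of all promoters. Histone genes made up part of that share, since 21 of the 37 histone promoters held the letters. Without histone genes the TATA share in large clusters was 9.79%.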

How the data were processed

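MED1 ChIP-seq libraries were made from RAW 264.7 cells stimulated with LPS for 2 h (2 libraries) or untreated (2 libraries), with DSG and formaldehyde fixation per the labels' protocols. The submitters' processing notes name mm10 as build and, as tools, Bowtie, SAMtools and MACS2 2.2.6; their settings, any control and any pooling are not stated there. The list holds 53764 intervals, 53747 of them on chromosomes 1 to 19 and X. Each line of the deposited list has a score of 0, which was not used. Depth is unknown, so no precision per library could be given.

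Genes, miRNAs and promoters came from RefSeq tables of GRCm38.p6 (mm10), and coordinates are 1-based. The 14 lists hold 420 distinct genes, of which 417 were found. Members, lists and rules were chosen with earlier results of these data known. Named by rule were the gene with the most covered bases, or else the nearest gene, of the 25 largest clusters, up to 5 touched and 3 untouched genes per list, and the genes at the 20 kb limit. Some genes selected by this rule are not reported here. Other genes, including some listed ones, were chosen after their values were seen. No test was run and no conditions were compared. Joining and stitching were tested on simulated data. Python 3.11.15, numpy 2.4.6, pandas 2.3.3 and matplotlib 3.10.9 were used. The alternatives were other stitching distances, minimum widths, joining distances and ways of linking genes.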

Additional observations from a re-analysis of the deposited data

Results flagged for a closer look

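Some deposited intervals lay on chromosomes that the cluster rule does not use. Chromosome Y carried 13 intervals, which summed to 6162 bp, the widest of them 1411 bp. The mitochondrial chromosome carried 4 intervals, which summed to 10250 bp, the widest of them 5444 bp. No control library was analysed here against which to set them.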

How the results depend on the processing

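The counts depend on the stitching and width limits. There were 353 large clusters, with 18.9% of the covered length; they touched 3.17% of genes and 32.7% of the inflammatory and macrophage genes, and 76.2% had a region at a start. Stitching within 5 kb gave 202 clusters, 10.4% of the length, 1.45% of genes, 25.7% of inflammatory genes and 70.3% at a start. Single regions of at least 20 kb without stitching gave 72, 3.21%, 0.393%, 9.9% and 51.4% for these quantities. A minimum of 15 kb gave 630 clusters, 26.9% of the length, 5.13% of genes and 40.1% of inflammatory genes. A minimum of 30 kb gave 139 clusters, 10.4%, 1.47%, 17.8% and 82.0% at a start. Without regions of a single interval there were 247 clusters, which touched 2.16% of genes and 26.2% of inflammatory genes. They held 16.5% of the length of the regions kept (7679175 of 46488125 bp), a smaller total than the 59729507 bp used for 18.9%. Another setting left out regions whose midpoint lay within 2500 bp of a gene end. Wide regions that held a start but were centred further away were kept. This gave 219 clusters, with 0.929% of genes, 15.3% of inflammatory genes and 52.1% at a start. They held 19.1% of the length of the regions kept (6879310 of 35961984 bp), which is not the total used for 18.9%. Joining intervals within 500 bp moved the length to 19.1%, of a total of 60148412 bp. Ranking by span gave 17.3% of the length, 3.6% of genes and 82.2% at a start. Taking the gene nearest to each cluster's middle gave 1.54% of genes and 25.2% of inflammatory genes. The width at which the ranked, scaled sizes have slope 1 (12.561 kb), chosen after seeing the data, gave 845 clusters, 31.9% of the length, 6.52% of genes, 46.5% of inflammatory genes and 3.92% of other-lineage genes. In each of these settings the share of inflammatory genes exceeded that of all genes. The settings re-cut the same intervals, and the lists were chosen with earlier results of these data known, so this is not independent support. The share of housekeeping genes was not computed under the alternatives. The promoter counts without histone genes were also added after seeing the data. The share of promoters with the CRE letters was 3.74% and with TATA 6.38% when starts in regions of any cluster were counted. No paired analysis was possible because the intervals carry no library.

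Limits are set by the list itself. Covered length is not signal, so a wide region with little MED1 and one with much cannot be told apart. The list joins or selects from libraries in a way not given in the sources used here, and calls in a single library cannot be recognised. Touched genes were counted by position, and no expression or contact was measured.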

Other observations

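Transfer RNA genes were touched in 25 of 408 cases (6.13%), against 3.17% of all protein-coding genes, which were not matched to them for length. The 25 lay in 4 large clusters, and neighbours under a shared cluster are not independent. These counts were made after other values had been seen and were not tested.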
